A study of Mus musculus with 5 samples.

Results

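Gene expression was compared between CD8+ T cells stimulated for 24 h with and without myeloid-derived suppressor cells (MDSCs), a population of immature myeloid cells that can restrain T cell responses. The T cells were OT-I cells, which carry a transgenic receptor for the ovalbumin peptide SIINFEKL, from spleen and lymph nodes of the strain C57BL/6-Tg(TcraTcrb)1100Mjb/J. Both groups were cultured with dendritic cells (DCs) pulsed with that peptide, and in 1 of the 2 groups MDSCs were present as well. The T cells were enriched by cell sorting and profiled on the 10x Genomics droplet platform. All cells of the 24 h table assigned to these libraries by the deposited cell annotation were taken: 1562 cells from DCs alone and 2247 cells from DCs with MDSCs, together 3809 of the 13629 cells in the 5 libraries of the series. The labels do not give the source or number of the MDSCs, the age of the mice or how many mice were used.

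Each group was 1 library. No test was therefore possible, and the spread between cultures is unknown. Every ratio below compares these libraries, and intervals on shares of cells are exact (Clopper-Pearson) 95% intervals that cover counting error of cells only.

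The values are whole numbers that the authors adjusted for depth, called adjusted counts here. Their total per cell ran from 17046 to 20003 with DCs alone and from 16999 to 20023 with MDSCs, which leaves the molecules sequenced per cell unknown. The median cell had 3739 genes above 0 with DCs alone and 3627 with MDSCs. All 8 defining CD8 T cell markers in the table were detected in both libraries, and their sum was at least 9 adjusted counts in every cell. Of 10 granulocyte and monocyte markers in the table, 7 were at 0 in the library from DCs alone, which for each allows up to 0.192% of cells with a count and sets no limit on cells that express it. At least 1 of the 10 was above 0 in 0.768% of cells with DCs alone and in 10.1% with MDSCs. S100a8 led them with 77 cells. The sum of these markers reached at most 2 adjusted counts in any cell, and its mean was 0.11 with MDSCs. Dendritic cell markers summed to 0 to 136 adjusted counts per cell with DCs alone and to 0 to 19 with MDSCs, with means of 2.42 and 2.47. The libraries shared 7 cell barcodes.

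A naive CD8 T cell that meets its antigen leaves quiescence, grows, switches to glycolysis and enters the cell cycle within about a day, while it begins to make interleukin 2, interferon gamma and granzyme B. Mean levels alone cannot tell a change shared by all cells from a change in how many cells have reached a given state. For that reason each difference of means is followed here through the ranks of the cells. A difference can lie in the lowest ranks (fewer cells lagging behind), in all ranks (a shift of the whole distribution) or in the topmost ranks (few cells with very high levels).

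A mean of 0.5 or more adjusted counts per cell was reached in at least 1 library by 3954 genes. With MDSCs 54 of them (1.37%) had a mean 1.5-fold higher or more, and 38 (0.961%) a mean 1.5-fold lower or more. Without the cells that held a rarer marker of granulocytes, monocytes, dendritic cells or B cells (95 with DCs alone and 347 with MDSCs), 54 genes were higher and 42 lower. Without the cells whose barcodes the libraries shared, the numbers were 53 and 38. The higher genes were led by the histone gene Hist1h2ap (4.13-fold), Hist1h1b (2.58-fold), AY036118 (2.51-fold), the translation inhibitor gene Eif4ebp1 (2.48-fold) and the metallothionein gene Mt1 (2.45-fold). The lower genes were led by the protease inhibitor gene Serpine2 (7.15-fold), Phlda3 (4.92-fold), the cell cycle inhibitor gene Cdkn1a (3.01-fold), S100a11 (2.93-fold) and Ccng1 (2.11-fold). The split between directions depended on scaling. Higher genes made up 58.7% of the calls, 48.3% after centring on the median of all genes, and 45.9% when ribosomal protein and mitochondrially encoded genes were left out of each cell's total. In the table adjusted over all time points the same cells gave 80 higher and 20 lower genes.

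**Figure D1:**
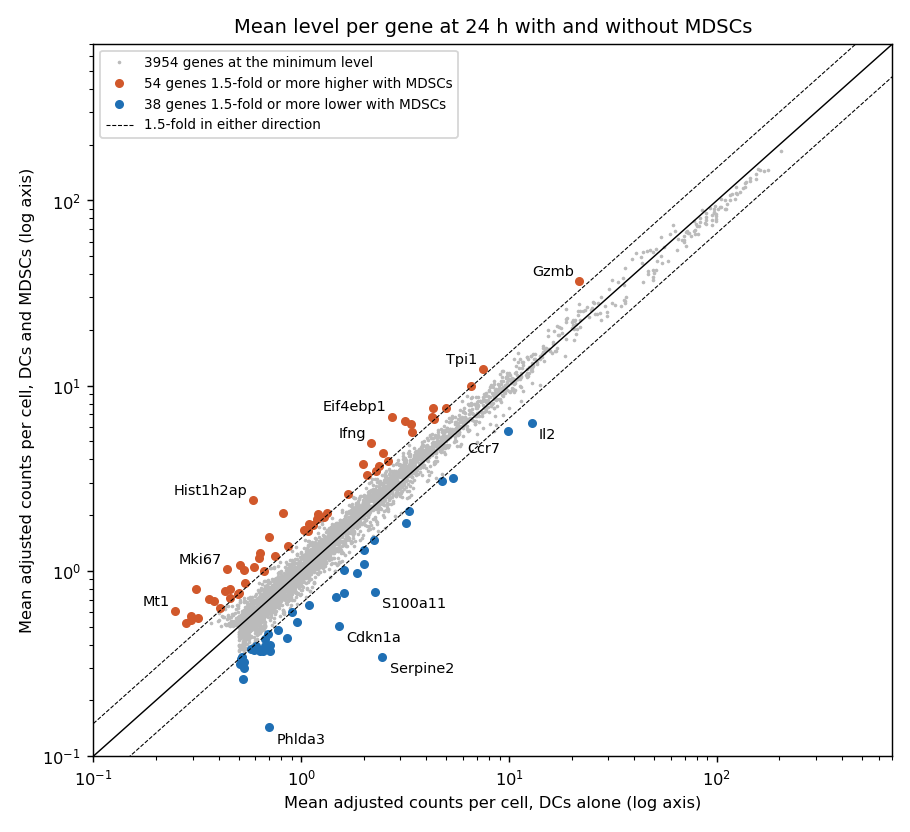
Mean adjusted counts per cell for each gene, with DCs alone on the horizontal and with DCs and MDSCs on the vertical log axis. Each grey point is 1 of 3954 genes, the dashed lines mark 1.5-fold, and coloured points are the 54 higher and 38 lower genes, of which Serpine2 and Phlda3 lie farthest below the diagonal.

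The difference of means was split by rank: cells of each library were ordered by a gene's level, and the part of the difference from ranks above the 95th percentile was taken. For 50 of the 54 higher genes at most 25% of the difference came from those top ranks. For 2 genes, Ifng and Mt1, at least 50% did, and Egln3 and Loxl2 lay between. Among the 38 lower genes 25 were spread over the ranks in this sense, 10 lay between, and Il2, Gbp2 and Samhd1 differed mainly at the top. Where few cells hold most counts of a gene, an equal change in every cell also gives a large part from the top ranks. The median part from the top ranks was 10.7% for higher and 22.4% for lower genes. From the lower 50% of the ranks it was 20.2% and 0%, as ranks at 0 in both libraries cannot differ. A spread gene is thus not one that differed at every rank.

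Shares of cells above 0 were then set against uniform scaling, in which every cell of the higher library is thinned by the ratio of the means. Of the 54 higher genes, 29 had a share in DCs alone more than 3 percentage points below the share from scaling, 25 were within 3 points and 0 were above. Those 29 genes differed by more cells without any count than this thinning gives. The thinning treats each adjusted count as a molecule, which these values are not. The share that an equal change in every cell would give is therefore not known exactly. The largest gaps belonged to 2810417H13Rik, which encodes a PCNA-binding factor (65.6% observed, 87.5% from scaling), to Gzmb (72.2% and 93.0%) and to Birc5 (57.5% and 73.5%). Of the 38 lower genes, 31 were within 3 points and 7 were above: with MDSCs these kept more cells above 0 than scaling gives. Il2 was one of them, with 49.4% observed and 42.7% from scaling.

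**Figure D2:**
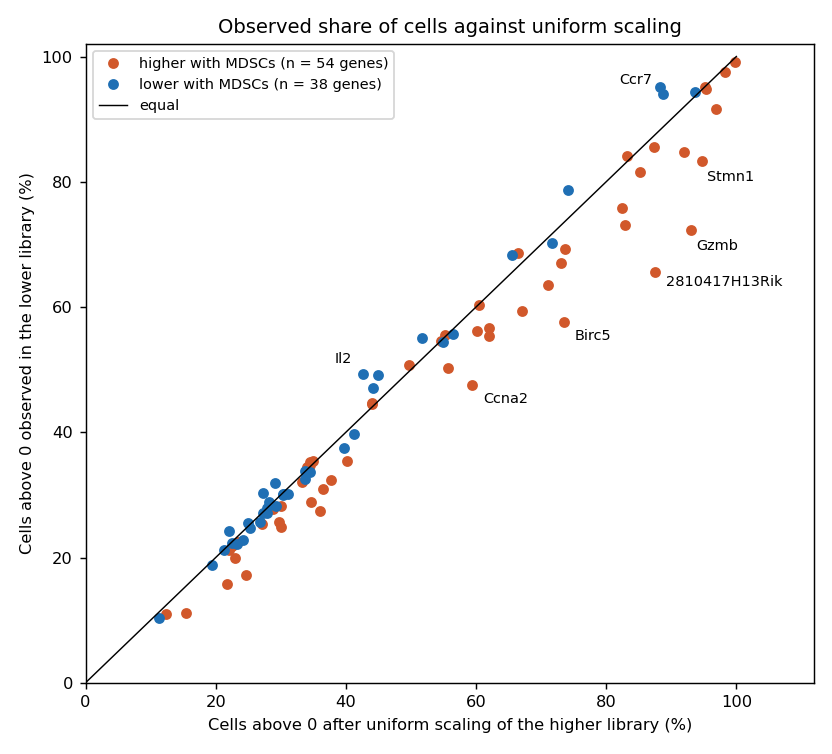
Share of cells above 0 in the library with the lower mean, observed (vertical axis, %) against the share that uniform thinning of the other library gives (horizontal axis, %), for 54 higher and 38 lower genes. Points of Gzmb, 2810417H13Rik and Birc5 lie well below the line of equality, while Il2 lies above it.

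Among genes of G2 and M phase, when the cell builds its spindle and divides, many were higher with MDSCs. There were 64 measured members, those with a mean of 0.2 or more in at least 1 library. At 1.5-fold 31 of them were higher and 0 lower, and of all 6224 genes at that level 1.37% were higher and 1.70% lower, the shares against which every list count below is to be read. As 14 members reached the minimum with MDSCs only, the mean of both libraries was also used as the minimum: 28 of 59 members were then higher and 0 lower, against 1.22% and 1.40% of 6075 genes. Their median log2 ratio was 0.53 against 0.0017 for all those genes. The proliferation marker Mki67 was above 0 in 24.8% of cells (22.7 to 27.1) with DCs alone and in 47.3% (45.2 to 49.3) with MDSCs. The mitotic kinase gene Plk1 had a mean of 0.126 and 0.306 adjusted counts, and Hmmr, which encodes a spindle-associated protein, 0.125 and 0.29. The ubiquitin-conjugating enzyme gene Ube2c was above 0 in 27.4% and 50.4% of cells. Promoters of such genes are known for 2 short elements, CCAAT and TTTGAA, the core of the cell cycle genes homology region. To show these elements, the promoters of the 2 members with the largest ratio that hold both are printed from RefSeq (GRCm38.p6), from 250 bases before to 50 after the gene start, with either element on either strand in capitals. Plk1 lies at chr7:122159185-122159484 (plus strand) and Hmmr at chr11:40733388-40733687 (minus strand).
Plk1: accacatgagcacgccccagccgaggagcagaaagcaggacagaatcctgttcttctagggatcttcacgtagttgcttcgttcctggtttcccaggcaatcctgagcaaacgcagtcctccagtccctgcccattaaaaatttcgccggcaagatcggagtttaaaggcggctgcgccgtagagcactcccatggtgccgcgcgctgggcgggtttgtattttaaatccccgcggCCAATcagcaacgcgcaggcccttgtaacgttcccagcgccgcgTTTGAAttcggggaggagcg
Hmmr: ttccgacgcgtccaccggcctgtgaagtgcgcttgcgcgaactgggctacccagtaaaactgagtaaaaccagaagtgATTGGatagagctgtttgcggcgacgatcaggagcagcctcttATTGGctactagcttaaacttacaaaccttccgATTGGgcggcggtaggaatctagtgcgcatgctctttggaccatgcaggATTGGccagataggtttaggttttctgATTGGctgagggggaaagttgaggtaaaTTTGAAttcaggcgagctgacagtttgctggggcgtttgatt
Among 52 promoters of the 50 members with an entry, 63.5% held both elements, against 6.95% of all 32851 promoters of the table. TTTGAA was found in 69.2% against 17.9%, and CCAAT in 39 of the 52 against 37.4%. Both elements were present for 19 of the 25 members with an entry that were called higher. A match describes the sequence only.

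S phase genes, which replicate DNA, differed in the lower ranks. Only Tk1, which makes thymidine monophosphate, and Ccne1, the cyclin of S phase entry, reached 1.5-fold among 54 measured members, but 50 of the 54 had ratios above 1. Summed over the list, the 5th percentile of cells was 21 adjusted counts with DCs alone and 63 with MDSCs, the 25th 66 and 104, and the median 108 and 127. The 95th percentile was 168 and 169. The lower 50% of the ranks carried 83.6% of the difference. Cells with little S phase RNA were thus scarcer with MDSCs, while the fullest cells were alike in both libraries. The G2 and M phase sum differed at all ranks but least at the top: the 5th percentile was 29 and 55, the median 77 and 130, and the 95th percentile 194 and 218.

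Histone genes of the replication-dependent clusters were mixed. Hist1h2ap had a mean of 0.584 with DCs alone and 2.41 with MDSCs, and was above 0 in 32.4% (30.1 to 34.8) and 68.2% (66.3 to 70.2) of cells. Of 11 measured histone genes 4 were higher, the others being Hist1h1b, Hist1h1e and Hist1h4i, and 0 were lower. These genes are near-identical in parts, so reads can be shared among them.

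Gzmb (chr14:56258838-56262260, GRCm38), the gene of the cell-killing protease granzyme B, had a mean of 21.8 adjusted counts with DCs alone and 36.5 with MDSCs, 1.68-fold higher. The 25th percentile was 0 and 6, the median 5 and 24, the 75th percentile 32 and 58, and the 99th 129 and 174. Cells above 0 made up 72.2% (69.9 to 74.4) and 96.2% (95.3 to 96.9). At 10 adjusted counts or more the shares were 42.7% (40.2 to 45.2) and 66.8% (64.8 to 68.8), and among cells above 0 the mean was 30.1 and 38. Free RNA can give single counts in cells that do not express a gene. These sorted libraries held no cell type in which its share could be measured, so for this and other genes a cell above 0 is only a cell with a count. Cells with a count of neither Gzmb nor Mki67 were 19.97% (18.02 to 22.04) with DCs alone and 1.69% (1.20 to 2.31) with MDSCs. Those with both were 17.0% and 45.1%. Serpinb9 and Serpinb6b, which encode inhibitors that protect cells from granule proteases, were 1.545-fold and 1.503-fold higher, whereas 11 of the 14 measured granule genes stayed within 1.5-fold. Prf1, the pore-forming perforin gene, was above 0 in 0.576% and 0.757% of cells, too few for a comparison.

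**Figure D3:**
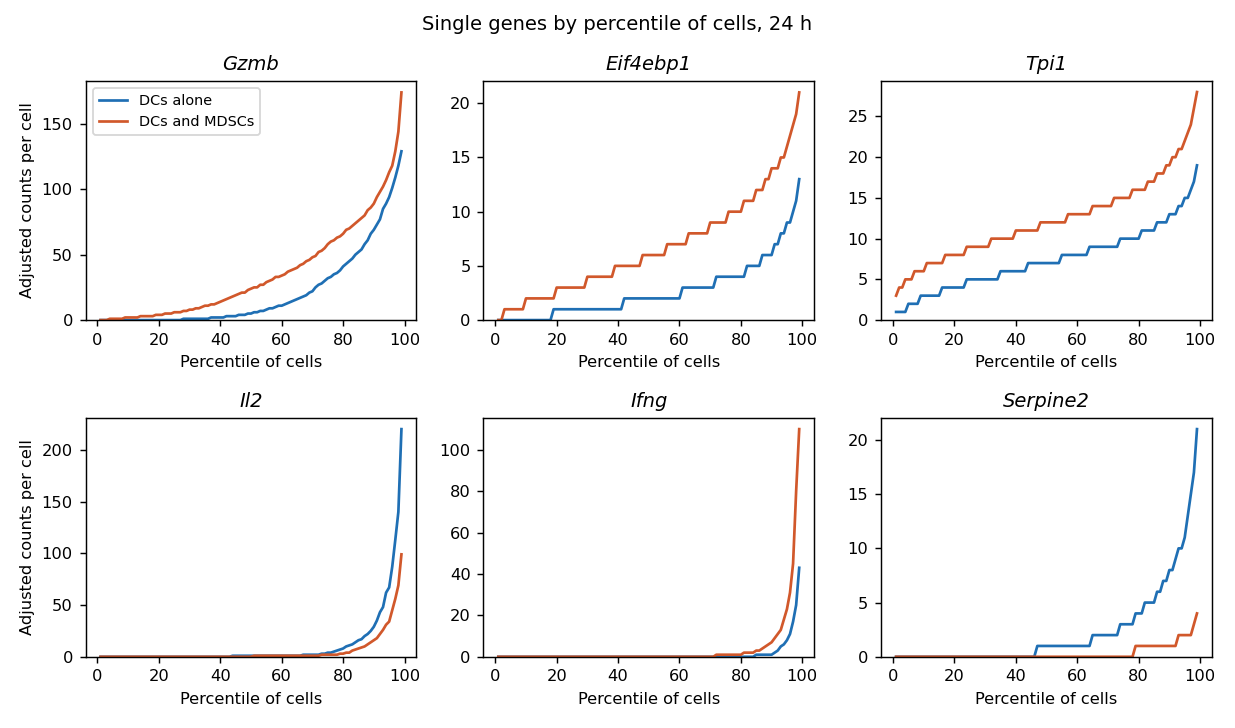
Adjusted counts per cell (vertical axes) at the 1st to 99th percentile of cells (horizontal axes) for 6 genes, with DCs alone in blue and with MDSCs in orange. Gzmb leaves 0 at lower percentiles with MDSCs, Eif4ebp1 and Tpi1 are shifted at nearly all percentiles, Il2 and Ifng differ mainly near the top, and Serpine2 from the middle percentiles upward.

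The integrated stress response, a program that is switched on by amino acid shortage and other stresses through the factor ATF4, and the serine synthesis genes it controls were shifted across the whole distribution. Among 22 measured members 8 were higher and 0 lower, against 1.37% and 1.70% of all genes at that level. With the minimum on the mean of both libraries, which 3 members had reached with MDSCs only, 7 of 21 were higher against 1.22% of all genes, with a median log2 ratio of 0.32. Per cell the list summed to 23 with DCs alone and 34 with MDSCs at the 5th percentile, to 40 and 54 at the median and to 64 and 83 at the 95th. Of cells with MDSCs, 84.2% lay above the median of cells with DCs alone.

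Eif4ebp1 (chr8:27260329-27276674), which encodes the translation inhibitor 4E-BP1, had a mean of 2.74 with DCs alone and 6.80 with MDSCs. Its median was 2 and 6, its 95th percentile 9 and 16, and it was above 0 in 81.6% and 97.9% of cells, where uniform scaling gives 85.2% for DCs alone. The mitochondrial folate enzyme gene Mthfd2 (4.96 and 7.57), the serine synthesis genes Psph (2.06 and 3.28) and Psat1 (2.29 and 3.47) and the asparagine synthetase gene Asns (0.298 and 0.494) were higher as well. The largest ratios were in low genes: Trib3, a pseudokinase gene induced by ATF4, was above 0 in 6.47% and 21.1% of cells, and Chac1, a glutathione-degrading enzyme gene, in 4.87% and 15.3%. In all 14 of the 22 measured members stayed within 1.5-fold, and 20 of the 22 had ratios above 1. Among those within 1.5-fold were genes of the response to unfolded proteins. The chaperone gene Hspa5 had 6.74 and 7.04, and Xbp1, a factor of that response, had 0.997 and 0.747. Also within 1.5-fold were Atf4 itself (4.24 and 5.46), Sesn2 (0.27 and 0.27), Ddit4 (0.292 and 0.292) and Ppp1r15a (0.283 and 0.221).

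ATF4 and C/EBP factors are known to bind a shared element, TGATGNAA. Among 22 promoters of the 21 members with an entry 22.7% held it, against 3.97% of all promoters in the table, and it was present for 4 of the 7 higher members with an entry. The 2 of these with the largest ratio are printed as above, with the element on either strand in capitals, since they show where it lies. Trib3 is at chr2:152344011-152344310 (minus strand) and Chac1 at chr2:119350992-119351291 (plus strand).
Trib3: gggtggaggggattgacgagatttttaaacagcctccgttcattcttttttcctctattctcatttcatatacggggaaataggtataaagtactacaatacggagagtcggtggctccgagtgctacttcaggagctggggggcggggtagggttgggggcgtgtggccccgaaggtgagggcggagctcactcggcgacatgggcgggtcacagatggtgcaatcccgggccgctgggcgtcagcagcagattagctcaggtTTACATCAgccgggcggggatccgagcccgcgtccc
Chac1: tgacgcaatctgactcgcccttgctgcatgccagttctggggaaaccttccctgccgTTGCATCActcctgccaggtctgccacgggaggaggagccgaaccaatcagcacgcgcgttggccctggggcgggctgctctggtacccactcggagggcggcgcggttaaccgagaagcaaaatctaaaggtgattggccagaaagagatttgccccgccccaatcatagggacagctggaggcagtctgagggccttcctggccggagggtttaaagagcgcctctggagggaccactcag
The element starts 15 bases into the transcript in Trib3 and 193 bases before the start in Chac1.

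Amino acid import and tRNA charging genes moved the same way by smaller amounts. Slc7a5, the large neutral amino acid transporter gene, was 1.53-fold higher and Cars, the cysteinyl-tRNA synthetase gene, 1.60-fold higher. Of 28 measured members 2 reached 1.5-fold and 25 had ratios above 1. The list sum shifted from 46 to 56 at the median and from 66 to 78 at the 95th percentile.

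Glycolysis genes were shifted at all ranks. Tpi1, which encodes triosephosphate isomerase, had a mean of 7.46 with DCs alone and 12.3 with MDSCs, with 25th percentiles of 5 and 9, medians of 7 and 12 and 95th percentiles of 15 and 22. Aldoa, the aldolase gene, had medians of 15 and 19. The lactate exporter gene Slc16a3 (MCT4) was above 0 in 3.91% (3 to 4.99) and 16.0% (14.5 to 17.6) of cells. Only Tpi1 and Slc16a3 of 18 measured members reached 1.5-fold, and 16 had ratios above 1. With the minimum on the mean of both libraries, Tpi1 alone of 17 was called. Summed per cell the list gave 89 and 130 at the 5th percentile, 148 and 183 at the median and 208 and 250 at the 95th, and 85.5% of cells with MDSCs lay above the median of DCs alone. Ldhb, the heart-type lactate dehydrogenase subunit gene, went the other way, with 0.261 and 0.175.

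Nuclear genes of oxidative phosphorylation had a median log2 ratio of -0.019, against 0.32 for glycolysis. Of 55 measured, 0 were called in either direction, but shares of 1.37% and 1.70% over all genes would give few or none. Their per-cell sum had medians of 458 with DCs alone and 454 with MDSCs. It spanned a narrower range with MDSCs, with 5th percentiles of 366 and 398 and 95th of 529 and 514. All 12 measured mitochondrially encoded transcripts had ratios above 1, none reached 1.5-fold, and their sum had medians of 287 and 336.

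**Figure D4:**
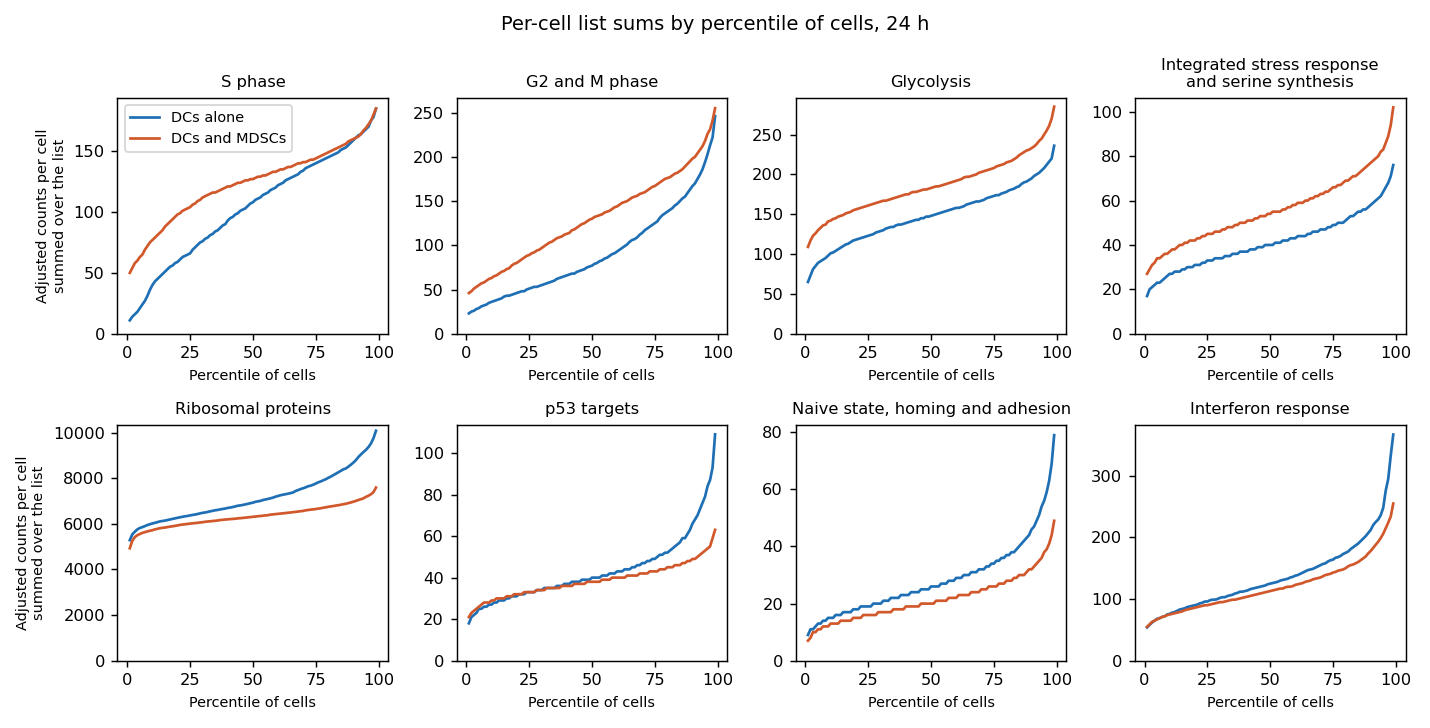
Adjusted counts summed over a gene list in each cell (vertical axes) at the 1st to 99th percentile of cells (horizontal axes), for 8 lists, with DCs alone in blue and with MDSCs in orange. The S phase curves part at low percentiles and meet at the top, the glycolysis and integrated stress response curves are apart throughout, and the p53 target curves lie close up to the median and part increasingly above it.

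Another rule, with a lower limit on size, asked for genes with a 25th percentile of 3 or more in both libraries. Their 25th, 50th and 75th percentiles had to be all at least 25% higher, or all at least 20% lower, with MDSCs. Of 596 genes high enough, 14 (2.35%) were higher with MDSCs at all 3 quartiles and 10 (1.68%) lower. Among the 14 higher genes 2 were also called at 1.5-fold, and among the 10 lower genes 0 were. The higher ones included Tpi1, Aldoa, Mthfd2, mt-Co1, the histone variant gene H2afz and Lyar, a nucleolar protein gene. H2afz had quartiles of 11, 17 and 25 with DCs alone and 19, 26 and 33 with MDSCs.

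Lower at all quartiles were the MHC class I genes H2-K1 and H2-D1 and their light chain gene B2m, whose products present peptides to CD8 T cells. The quartiles of B2m were 25, 33 and 43 with DCs alone and 19, 25 and 33 with MDSCs. Those of H2-K1 were 9, 13 and 18 against 7, 9 and 13. The ribosomal protein genes Rps27, Rps28 and Rpl39 were also among the 10. Over the whole class 81 ribosomal protein genes were measured, 0 were called and 2 had ratios above 1, with a median log2 ratio of -0.17. Their sum differed most at the top: the 5th percentile was 5820 and 5555 adjusted counts per cell and the 95th 9244 and 7185. Ribosomal proteins took 37.2% of all adjusted counts with DCs alone and 33.6% with MDSCs of a total per cell that is nearly fixed.

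Transcripts tied to ribosomal RNA were higher over most ranks, with wide overlap between the libraries. Gm26917, Gm42418 and AY036118 lie within a few kilobases of each other on chromosome 17 (GRCm38, GENCODE M21: 39843013 to 39846341, 39846958 to 39848788 and 39847113 to 39848035), and AY036118 overlaps Gm42418 on the other strand, so their reads are not separable without strand. Gm26917 had a mean of 3.14 with DCs alone and 6.43 with MDSCs and medians of 3 and 6. For Gm42418 the means were 3.37 and 6.20, and for AY036118 0.815 and 2.05. Of cells with MDSCs, 45.1% lay above the 95th percentile of DCs alone for Gm26917, 28.9% for Gm42418 and 15.8% for AY036118.

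The differences of means in Ifng and Il2 came mainly from the top ranks. Cells with high levels weigh most in a mean, so an equal change in every cell can give this too. Thinning DCs alone to the Il2 mean with MDSCs gave a 75th percentile of 2 and a 95th of 34, both as observed. Without the highest 5% of cells the log2 ratio was -0.94 for Il2 (-1.03 with all cells) and 2.03 for Ifng (1.17). Ifng (chr10:118441046-118445892), the gene of the antiviral cytokine interferon gamma, had a mean of 2.17 with DCs alone and 4.90 with MDSCs, 2.26-fold higher, and 70.8% of that difference came from ranks above the 95th percentile. Cells above 0 were 15.7% (14.0 to 17.7) and 28.5% (26.6 to 30.4). The 95th percentile was 8 and 23 and the 99th 43 and 110. Il2 (chr3:37120523-37125959), the gene of the T cell growth factor interleukin 2, went the other way, with a mean of 12.9 and 6.31. Its 95th percentile was 67 and 34 and its 99th 220 and 99, while cells above 0 were 56.0% (53.5 to 58.5) and 49.4% (47.3 to 51.4). Cells with 10 or more adjusted counts of Il2 were 19.1% (17.2 to 21.1) and 13.7% (12.3 to 15.2), and of Ifng 4.67% (3.68 to 5.84) and 8.63% (7.505 to 9.872). At that level Il2 without Ifng was found in 18.5% and 12.6% of cells, Ifng without Il2 in 4.10% and 7.48%, both in 0.576% and 1.16%, and neither in 76.8% and 78.8%.

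Of the other cytokine genes, Lta (lymphotoxin alpha) was 1.59-fold higher with MDSCs, with medians of 2 and 4. Xcl1, a chemokine that draws cross-presenting DCs, had means of 8.49 and 5.66 and 99th percentiles of 113 and 64, though cells above 0 were 62.0% and 63.0%. Tnf (1.03 and 1.18), Ccl3 (6.10 and 7.20) and Ccl4 (20.97 and 19.08) stayed within 1.5-fold. In all 2 of 15 measured cytokine genes were higher and 2 lower, the second lower one being Ccl1 (0.222 and 0.145), found in 1.54% and 1.34% of cells. Without the cells that held a rarer marker of other cell types Ccl1 went the other way, with a log2 ratio of 0.36, and with the minimum on the mean of both libraries it was not measured.

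Target genes of p53, the factor that halts the cell cycle after DNA damage, were lower mainly in the upper ranks of the cells. With DCs alone Cdkn1a (chr17:29090976-29100727), which encodes the cyclin-dependent kinase inhibitor p21, reached 9 adjusted counts at the 95th and 18 at the 99th percentile, and with MDSCs 3 and 5. Phlda3, an inhibitor of AKT signalling, had a mean of 0.703 and 0.143 and was above 0 in 32.7% and 10.4% of cells. Psrc1 was above 0 in 19.1% (17.2 to 21.2) and 2.54% (1.93 to 3.27). Zmat3 and Ccng1, 2 further p53 targets, were lower as well, which makes 5 of 17 measured members lower and 0 higher. Of the members, 3 had reached the minimum only with DCs alone and 1 only with MDSCs. With the minimum on the mean of both libraries Psrc1 was not measured, and 4 of 15 members were lower against 1.40% of all genes. Mdm2 (0.627 and 0.645), Bax (8.71 and 7.82) and Trp53 itself (2.90 and 2.70) were not among them. The list sum had medians of 40 and 38 but 95th percentiles of 79 and 53, and only 0.223% of cells with MDSCs lay above the 95th percentile of DCs alone. Of its means of 43.6 and 38.5, 20.6 and 20.2 came from Rps27l, which was also counted among the ribosomal protein genes. Its part in the upper percentiles was not tested.

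Serpine2 (chr1:79794197-79861180), which encodes a secreted inhibitor of serine proteases, was above 0 in 53.1% (50.6 to 55.6) of cells with DCs alone and 21.1% (19.5 to 22.9) with MDSCs. The mean was 2.46 and 0.344, the 75th percentile 3 and 0, and the 95th 11 and 2. With DCs alone 12.3% (10.7 to 14.0) of cells were above the 75th percentile of DCs alone for both Serpine2 and Cdkn1a, against 0.356% (0.154 to 0.70) with MDSCs. Cells above it for Cdkn1a only were 9.60% and 10.8%, and for Serpine2 only 9.67% and 1.11%. The share for both falls when either gene is lower, so it does not compare how often they coincided. Across cells of a library the rank correlation of Serpine2 and Cdkn1a was 0.43 over 1562 cells with DCs alone and 0.083 over 2247 cells with MDSCs. It is a description of cells that share a library. S100a11, a calcium-binding protein gene, was lower in a broader way, with 75th percentiles of 3 and 1 and 73.1% and 47.1% of cells above 0.

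Of 18 measured genes of the naive state, homing and adhesion, 5 were lower and 0 higher. Ccr7, the chemokine receptor gene that guides T cells into lymph nodes, was above 0 in 93.92% and 93.95% of cells, but had medians of 6 and 4 and 95th percentiles of 32 and 16. Klf2, a transcription factor gene of quiescent T cells, had a mean of 0.373 and 0.16. The list sum had 5th percentiles of 13 and 11, medians of 26 and 20 and 95th percentiles of 56 and 38. Tcf7, a factor of naive and memory cells, had means of 2.62 and 2.49.

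Interferon response genes were lower for 4 of 29 measured members, Gbp2, Gbp4, Iigp1 and Samhd1, and higher for 0, against 1.70% and 1.37% of all genes at that level, with a median log2 ratio of -0.32. Of the members, 3 had reached the minimum only with DCs alone. With the minimum on the mean of both libraries Iigp1 was not measured, and 3 of 27 members were lower against 1.40% of all genes. Gbp2, a guanylate-binding protein gene, had 95th percentiles of 7 and 3 and 99th of 17 and 7. In the list of inhibitory receptor genes Btla, Vsir, Ctla4 and Cd274, which encodes a ligand of PD-1, were lower, 4 of 11 measured. Ctla4 had 0.47 and 0.293. Of these members, 2 had reached the minimum only with DCs alone. With the minimum on the mean of both libraries 4 of 11 were lower as well, against 1.40% of all genes. Pdcd1, which encodes PD-1, had 0.25 and 0.215 and Lag3 1.501 and 1.095, both within 1.5-fold.

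Early activation genes were mixed. Of 30 measured, Batf3 and Egr1 were higher and Spry1, Dusp4, Tnfsf14 and Nfkbie lower. With the minimum on the mean of both libraries 2 of 29 were higher and 3 lower. Batf3 was above 0 in 17.2% (15.3 to 19.1) and 31.3% (29.4 to 33.3) of cells, with means of 3.64 and 3.75 among cells above 0, so that its 1.88-fold higher mean went with the number of cells rather than the level per cell. Spry1 and Dusp4, feedback inhibitors of the MAP kinase pathway, had means of 0.279 and 0.125 and of 0.448 and 0.23. Among markers of receptor triggering within 1.5-fold, Il2ra had 3.23 and 3.43, Myc 2.98 and 2.84, Irf4 1.88 and 1.58, Cd69 2.60 and 2.09, Tnfrsf9 4.07 and 3.11, and Nr4a1 0.626 and 0.77. The costimulatory receptor genes Tnfrsf4 (3.04 and 2.05), Tnfrsf18 (4.78 and 3.34) and Icos (0.829 and 0.585) had larger differences but stayed under 1.5-fold. Of the effector factors, Tbx21 had 0.771 and 0.94 and Eomes 0.525 and 0.579. Cd44 had 1.36 and 1.23.

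How much of this followed from the number of cycling cells was examined by dividing all cells into 4 bins of the summed G2 and M phase list, at the quartiles of the pooled cells. The lowest bin held 43.0% (40.6 to 45.5) of cells with DCs alone and 13.53% (12.14 to 15.01) with MDSCs, and the highest 12.9% (11.3 to 14.7) and 32.8% (30.9 to 34.8). Both libraries were then given equal weight over the bins. Genes of the G2 and M phase list came close to equality, with Mki67 at a log2 ratio of 0.20 in place of 1.21, which the binning by the same genes brings about in part. The S phase genes Tk1 and Ccne1 were at 0.043 and 0.12. Outside these and the histone lists 13 of 30 higher and 24 of 38 lower genes were still at 1.5-fold, 37 in all. The 30 include cell cycle genes that the lists do not hold, such as 2810417H13Rik, Fbxo5 and Incenp, which did not keep 1.5-fold. With bins by the number of genes above 0 in a cell instead, 64 were.

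Among the higher genes that kept 1.5-fold, Eif4ebp1 had a weighted log2 ratio of 1.04, Gm26917 of 1.01, Tpi1 of 0.63 and Ifng of 1.12. Gzmb was at 0.76, the same as without weighting (0.75), and was higher in each bin, with means of 18.7 and 39.6 in the lowest bin and of 19.9 and 31.6 in the highest. By contrast 2810417H13Rik had 0.01 in place of 0.81. Hist1h2ap kept 1.14, and its log2 ratio within the bins ran from 1.02 to 1.42.

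Serpine2, Cdkn1a and Il2 differed most among cells with little mitotic RNA. The libraries were not fully matched within the lowest bin. Its mean G2 and M phase sum was 46.9 with DCs alone and 57.1 with MDSCs, and its S phase sum 62.8 and 72.2. In the highest bin the G2 and M phase sum was 193 and 189. What this adds to the differences below was not tested. In the lowest bin Serpine2 had a mean of 4.21 with DCs alone and 0.424 with MDSCs, and in the highest 0.802 and 0.329. Cdkn1a had 2.45 and 0.322 in the lowest and 1 and 0.63 in the highest. Il2 had 21.6 and 7.51 in the lowest bin, 7.63 and 6.70 in the second, 5.97 and 6.08 in the third, and 4.32 and 5.73 in the highest. Its weighted log2 ratio was -0.60. The lower Il2 mean thus lay mainly in the lowest bin, the one that also held the highest ribosomal protein sum with DCs alone (7822 adjusted counts per cell, 6659 with MDSCs). Glycolysis differed most in that bin too, from the other side, with list sums of 131 and 193 against 165 and 180 in the highest.

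**Figure D5:**
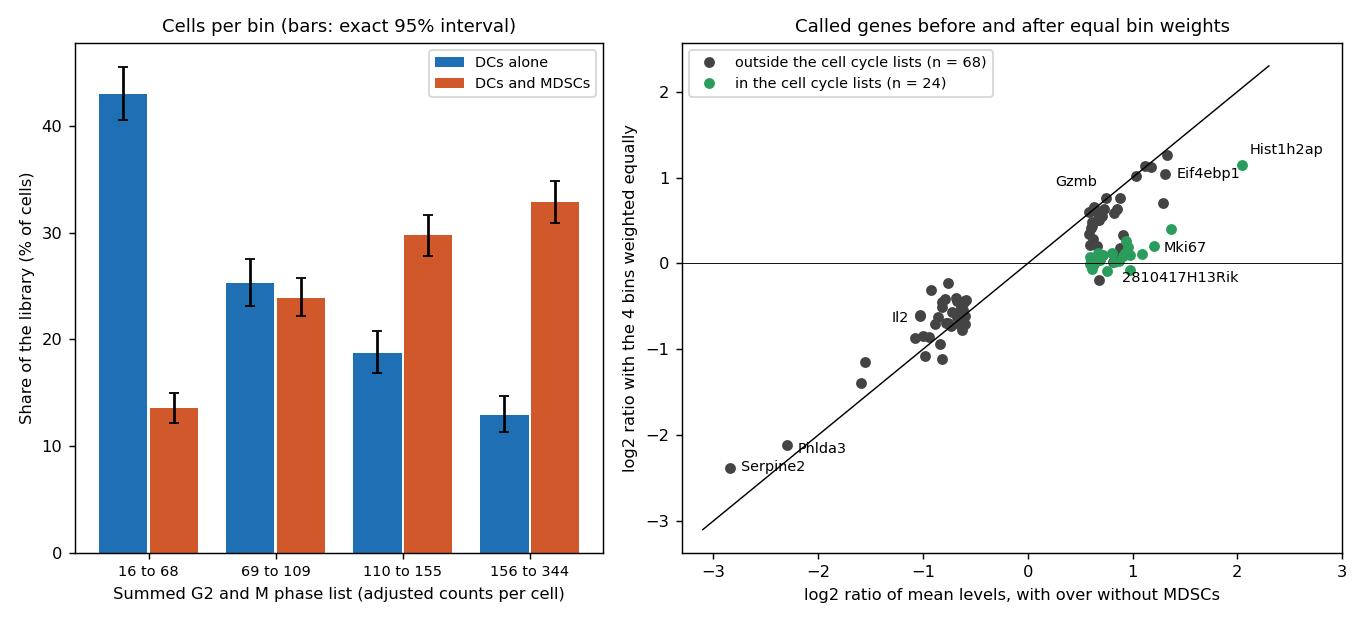
Left, share of each library (vertical axis, % of cells with exact 95% intervals) in 4 bins of the summed G2 and M phase list (horizontal axis). Right, log2 ratio of means with over without MDSCs for the 92 called genes before (horizontal) and after (vertical) equal weighting of the bins: cycle list genes drop toward 0 except the histone gene Hist1h2ap (1.14), while Eif4ebp1, Gzmb, Serpine2 and Phlda3 stay nearer the diagonal.

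Lists without any called member included the T cell receptor and CD8 genes (17 measured), chaperones (27), immediate early genes (11), ribosome biogenesis and MYC targets (43) and arginine, polyamine and tryptophan genes (16). With 1.37% of all genes higher and 1.70% lower at that level, lists of this size hold few calls or none, and nothing is read from their absence. The ribosome biogenesis sum had medians of 370 and 378 and 5th percentiles of 257 and 309. Cd8a had a mean of 8.43 and 8.53, and Thy1 9.22 and 12.0.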

How the data were processed

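Sorted OT-I CD8+ T cells were profiled on the 10x Genomics droplet platform, per the labels' protocols. The submitters' processing notes name Cell Ranger 2.0.1, Seurat and genome build mm10, without saying what each did. The authors deposited natural log values: each entry of the 24 h table is ln(1 + n) with n a whole number, and 0 back-transformed values missed a whole number by more than 1e-06. The adjustment for depth that the authors applied to these numbers is not described in the labels. As they are not molecule counts, no count model, thinning to equal depth or doublet caller was used, and doublets were not treated.

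The 24 h table held 12631 genes. A gene's level was its mean adjusted count per cell in a library, and genes with a mean of 0.5 or more in either library were called at 1.5-fold. Lists used members with a mean of 0.2 or more in either library, and in an alternative added after seeing the data a mean of both libraries at 0.2 or more. With 1 library per group no p-value was computed. The design had allowed for molecule counts, and the same ratios were taken on the adjusted values. The code was tested on simulated data.

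Named genes were the 15 largest ratios in each direction, the 2 most extreme members of each list in each direction, 26 fixed genes and up to 10 genes in each direction under the quartile rule. Other list members and called genes that the text names were chosen after their values were seen. The libraries compared, the lists and the alternatives were chosen with earlier results of these data known. Promoter sequences are RefSeq's (GRCm38.p6), and gene positions are from GENCODE M21. Versions were Python 3.11.15, numpy 2.4.6, pandas 2.3.3, scipy 1.17.1 and matplotlib 3.10.9. The result for 1 gene of the named genes is not reported here.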

Additional observations from a re-analysis of the deposited data

How the results depend on the processing

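The number of genes called depended mainly on the thresholds. At 2-fold 10 genes were higher and 8 lower, and with a limit of 25% higher or 20% lower 234 and 211. A minimum mean of 0.2 gave 85 higher and 106 lower genes, of which 13 differed mainly in the top ranks and 118 were spread. A minimum of 2 gave 23, 10, 2 and 27 in the same order, and no minimum 852, 970, 1530 and 184. With ribosomal protein and mitochondrially encoded genes left out of each cell's total, 59 genes were lower, and in the table of all time points 20 were, 19 of them among the 38 reported. Only cells in the middle 50% by number of genes above 0 gave 101 higher, 70 lower and 151 spread genes.

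Leaving out every cell with a marker of granulocytes, monocytes, dendritic cells or B cells kept only 211 and 255 cells, since Cst3 alone was above 0 in 77.7% and 78.1% of cells, and gave 85 higher, 71 lower and 125 spread genes. With the 19 markers that were above 0 in at most 5% of either library, an alternative chosen after seeing the data, 1467 and 1900 cells stayed and 54 genes were higher, 53 of them as reported, and 42 lower, including all 38. Setting the top ranks at the 90th percentile gave 12 genes that differed mainly at the top and 40 spread genes. The quartile rule called 24 genes, 1 at a ratio of 1.5, 12 at a minimum 25th percentile of 5 and 52 in the middle 50% of cells. After equal bin weights 37 genes outside the cycle lists were kept, and 64 with bins by the number of genes above 0. For the counts of genes the other alternatives stayed within 1.5 times those reported. The cause of these differences was not tested.

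In the table of all time points, 34 of 52 shares of cells above 0 lay outside their reported intervals, and changes over the 52 ran from -9.86 to 0.89 percentage points, with Gzmb at 64.3% and 92.2% of cells. The direction between the libraries was the same for 24 of 26 genes, and Ccr7 (91.9% and 90.7%) and Xcl1 (57.4% and 55.9%) turned. Of 30 list medians 10 moved there, and 7, none above 0.104 in size as reported, changed sign. Among named genes, Ube2c had a log2 ratio of -0.074 with equal bin weights, Mt2 of -0.095 without any marker-bearing cell, and Ccl1 of 0.36 without cells holding the rarer markers. No paired analysis was possible because each group is 1 library, and for the same reason no replicate could be left out. Precision is limited by the unknown number of molecules per cell and by the single library per group.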
